A study of Mus musculus with 16 samples.

Results

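The eIF4E family and its 4E-binding proteins were followed in gastrocnemius muscle of mice that model myotonic dystrophy type I. The 6 genes examined were Eif4e, Eif4e2, Eif4e3, Eif4ebp1, Eif4ebp2 and Eif4ebp3, out of 24454 genes with read counts. The set was chosen by the counts of Eif4e3, which were strongly higher in the disease model than in control muscle, and the other 5 genes were added as its relatives and binding partners. All 6 had enough reads to be tested, together with 15487 genes in all. The differences between HSALR and control muscle are therefore described for these genes without a test, whereas their responses to AICAR were tested. Those responses share their libraries with the comparisons on which Eif4e3 was chosen.

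In HSALR mice (homozygous, line LR20b), the promoter of the human skeletal actin gene drives a transgene that holds an expanded CTG repeat, so that the repeat RNA is made in skeletal muscle and not in other tissues, and the controls were FVB/N mice without it. All mice were aged 3 months. AICAR, which is taken up by cells and activates the energy sensor AMPK, was given at 500 mg/kg for 7 days, and the other mice received vehicle. The 4 groups were control vehicle (n = 3), HSALR vehicle (n = 5), control AICAR (n = 3) and HSALR AICAR (n = 5), with 1 library per mouse. The human transgene is not among the counted mouse genes, so its level could not be used to check the genotype labels.

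The first step of cap-dependent translation is the recognition of the methylated cap at the start of an mRNA. eIF4E binds the cap and brings in the scaffold eIF4G, whereas the 4E-binding proteins occupy the eIF4G site on eIF4E until they are phosphorylated by mTORC1. eIF4E2, also called 4EHP, binds the cap without recruiting eIF4G in the usual way and is known for its part in translational repression. eIF4E3 is a less studied relative, whose cap pocket lacks one of the aromatic residues that stack on the cap in eIF4E. In mRNA data, these proteins are seen only through the abundance of their transcripts, and neither protein level nor phosphorylation was measured.

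The coding windows below are shown because they mark where eIF4E3 departs from its relatives. They were read 5′ to 3′ on the coding strand from the longest complete coding transcript of GENCODE M21 (build GRCm38), and capitals mark the codon aligned with codon 56 of Eif4e, which specifies the first cap-stacking tryptophan.
Eif4e: aaaagcaaaactTGGcaagcaaacctt
Eif4e2: agctcgcagagcTATgagcagaacatc
Eif4e3: acagcagccgagTGTgcctcgaatctg
Eif4e1b: cgaagccgggccTGGcaggacaacctg
The Eif4e window lies at chr3:138547687-138547713 (plus strand), the Eif4e2 window at chr1:87221004-87221030 (plus strand), the Eif4e3 window at chr6:99651749-99651775 (minus strand) and the Eif4e1b window at chr13:54784837-54784863 (plus strand). TGG is the tryptophan codon, TAT a tyrosine codon and TGT a cysteine codon, so that at this place Eif4e and its close relative Eif4e1b carry tryptophan, Eif4e2 carries another aromatic residue and Eif4e3 a cysteine.

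For the 4E-binding proteins, capitals mark the 7 codons of the motif with which they dock on eIF4E, which a search of the coding sequence found once in each gene.
Eif4ebp1: atcTATGACCGGAAATTTCTGATGgag
Eif4ebp2: attTATGACCGAAAGTTTCTGTTGgac
The Eif4ebp1 window lies at chr8:27273334-27273360 (plus strand) and the Eif4ebp2 window at chr10:61435066-61435092 (minus strand). They are the docking sites of the 2 more abundant 4E-binding protein transcripts of this muscle.

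The libraries held between 64890014 and 81987726 counted reads, with a median of 73021286. All 8 muscle fibre markers were present in each group, and their sums overlapped, but the genotypes were apart in 3 of the 8 after vehicle (Myh1, Acta1 and Myh7) and in 3 after AICAR (Myh1, Acta1 and Myh4). Myh1, the myosin of type IIX fibres, was 3513 to 5408 CPM in control vehicle and 9473 to 17610 in HSALR vehicle mice, and 5116 to 5872 and 14300 to 19360 after AICAR. Acta1, skeletal actin, was 26550 to 31270 CPM in control vehicle and 33590 to 37700 in HSALR vehicle mice. The transgene of HSALR mice is itself a skeletal actin gene, of human origin, and whether its reads were counted at mouse Acta1 was not tested. Myh7, the slow myosin, was 1506 to 4812 CPM in control vehicle and 888.1 to 1243 in HSALR vehicle mice. The part of fibre type in the genotype differences below was not tested. Other tissue moved with the groups in part. The summed level of 9 epidermal markers exceeded 10 CPM in 1 of 3 control vehicle, 4 of 5 HSALR vehicle, 1 of 3 control AICAR and 0 of 5 HSALR AICAR libraries, with a range from 2.26 to 298.5 CPM over all libraries, and all 9 were detected in HSALR vehicle muscle while Flg2 and Dsg1a were at 0 in every HSALR AICAR library. The sum of 4 endothelial markers was 234.4 to 261.3 CPM in control vehicle, 155.5 to 203.6 in HSALR vehicle, 241.2 to 261.6 in control AICAR and 194.6 to 213.3 in HSALR AICAR mice, with all 4 markers at 1 CPM or more, and the part of vessels in the genotype differences was not tested. Red cell markers (4 genes) summed to 1210 to 3099 CPM in control vehicle and 509.4 to 858.6 in control AICAR mice, and their part in the AICAR values of control muscle was not tested. The sums of the satellite cell, adipocyte, leukocyte, fibroblast and Schwann cell markers overlapped between the groups of each comparison made here, but the ranges of some single markers did not. After vehicle, HSALR mice lay above controls in 3 of 6 satellite cell markers (Pax7, Myod1 and Myog) and 2 of 6 leukocyte markers (Cd68 and Csf1r), while the other 4, Adgre1 and Ptprc among them, overlapped. After AICAR they lay above controls in Pax7, Myf5 and Cd68 and below them in Col1a1. AICAR mice lay below vehicle mice in Pax7, Myod1 and Myog in both genotypes, in Myh3 and Col1a1 in HSALR and in Pdgfra in control muscle, and above them in the endothelial markers Pecam1 and Tie1 in HSALR muscle. The widest of these gaps in the satellite cell list was that of Myod1, a muscle regulatory factor, at 26.25 to 70.3 CPM in HSALR vehicle and 2.81 to 9.105 in HSALR AICAR mice, whereas most of that sum was Myh8. The share of all genes whose ranges lay apart is not given here, so these counts of markers have no background beside them. By adjusted p in edgeR, 26.9% of all tested genes differed between the genotypes after vehicle and 21.8% after AICAR. The part of these cells in the genotype and AICAR values was not tested. In bulk muscle, fewer cells of a type and less RNA per cell cannot be told apart.

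Eif4e3 (Entrez 66892, chr6:99621879-99692873, minus strand) was expressed in every mouse. Its normalized level, in CPM (read counts scaled to a common library total, after correction for library composition), was 24.6, 27.1 and 20.8 in the 3 control vehicle mice and 80.9, 84.6, 78.9, 78.5 and 84.3 in the 5 HSALR vehicle mice. After AICAR it was 28.4, 25.2 and 31.5 in controls and 82.1, 74.6, 86.3, 77.3 and 78.0 in HSALR mice. Every HSALR mouse was above every control mouse, and the 5 untreated HSALR mice lay within a narrow band. The fitted log2 difference between HSALR and control was 1.75 (SE 0.088, 3.37-fold) after vehicle and 1.49 (SE 0.087, 2.81-fold) after AICAR, 2 comparisons that share no library. These values led to the choice of the gene and are a description. After vehicle, 289 of the 15487 genes had a log2 difference at or above that of Eif4e3, and after AICAR 227 did.

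Gpr27, an orphan G protein-coupled receptor gene on the opposite strand, overlaps the start of Eif4e3 in the RefSeq annotation, and whether strand was used in counting is not stated in the sources used here. Gpr27 had 3, 17 and 11 reads in the control vehicle mice and 62, 73, 75, 130 and 136 in the HSALR vehicle mice. Its difference between the genotypes passed the test after vehicle (log2 difference 3.19, SE 0.396, edgeR quasi-likelihood adjusted p = 3.6e-05) and after AICAR (log2 difference 2.17, SE 0.381, edgeR adjusted p = 0.00099). Eif4e3 had 5323 to 6440 reads in the same 5 HSALR vehicle mice. In the GENCODE models, which are not those used for counting, Gpr27 shares 0 of the 2515 exonic bases of Eif4e3. How reads in the RefSeq overlap were divided was not tested. A further GENCODE model on the same strand, Gm20696, shares 373 of those bases (14.8%). Gm20696 (chr6:99257484-99666797) runs beyond Eif4e3, whereas Gm52869 and Gm44104 lie within it, and none of them has a row among the counted genes. How reads in the 373 shared bases divide between Gm20696 and Eif4e3 was not tested either.

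**Figure D1:**
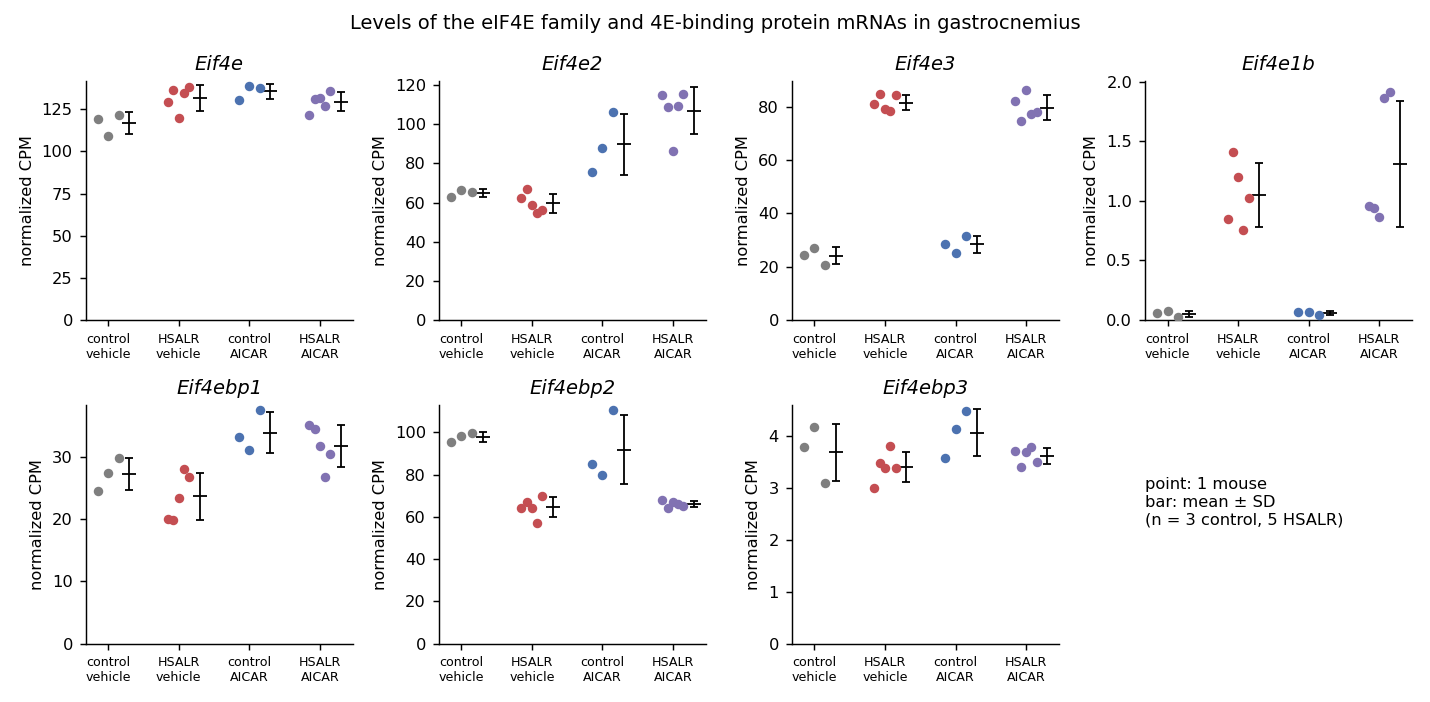
Normalized level in CPM (y axes, from 0) of Eif4e, Eif4e2, Eif4e3, Eif4e1b, Eif4ebp1, Eif4ebp2 and Eif4ebp3 in the 4 groups, with 1 point per mouse and the mean ± SD beside the points. Eif4e3 sits between 74.6 and 86.3 CPM in HSALR mice and between 20.8 and 31.5 in controls, Eif4e2 is higher in the AICAR groups, and Eif4ebp2 is lower in the HSALR groups.

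Eif4e (Entrez 13684, chr3:138526191-138559696, plus strand) encodes the main cap-binding translation factor. Its level was 119.3, 109.3 and 121.4 CPM in control vehicle mice and 129.4, 136.1, 119.5, 134.5 and 138.3 in HSALR vehicle mice. Those groups overlapped, and the log2 difference was 0.17 (SE 0.058, 0.46 when scaled to Tbp). After AICAR, the means were 135.5 ± 4.61 (SD, n = 3) in controls and 129.4 ± 5.50 (SD, n = 5) in HSALR muscle, and the log2 difference was -0.07 (SE 0.058). The gene holds the microRNA Mir1956 within its span on the same strand.

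Eif4e2 (Entrez 26987, chr1:87213911-87240488, plus strand) was 62.8, 66.4 and 65.5 CPM in control vehicle mice, and 62.2, 66.8, 58.6, 54.8 and 56.3 in HSALR vehicle mice. The log2 difference was -0.12 (SE 0.106) after vehicle (0.15 when scaled to Tbp) and 0.25 (SE 0.107) after AICAR, and the genotypes overlapped under both. The second value was 0.14 without control AICAR mouse S447 and 0.39 without S449.

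Eif4ebp2 (Entrez 13688, chr10:61428491-61452790, minus strand) encodes the 4E-binding protein whose transcript was the most abundant of the 3 in this muscle. Its level was 95.3, 98.1 and 99.8 CPM in control vehicle mice and 64.4, 66.8, 64.1, 57.2 and 70.0 in HSALR vehicle mice. Every HSALR mouse was below every control mouse. After AICAR it was 85.3, 79.8 and 110.4 in controls and between 64.0 and 67.8 in HSALR mice, again without overlap. The log2 difference was -0.60 (SE 0.084, 0.660-fold, -0.32 when scaled to Tbp) after vehicle and -0.48 (SE 0.085, 0.719-fold) after AICAR. The control AICAR mouse at 110.4 carried part of the second value, which was -0.32 (SE 0.064) without it. The GENCODE model Gm48086 lies within the gene on the same strand and has no row among the counted genes.

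Eif4ebp1 (Entrez 13685, chr8:27260327-27275656, plus strand), the best known target of mTORC1 among the 4E-binding proteins, was 27.2 ± 2.63 CPM (SD, n = 3) in control vehicle muscle and 23.7 ± 3.73 (SD, n = 5) in HSALR vehicle muscle. The log2 difference of -0.20 (SE 0.120, but 0.07 when scaled to Tbp) and that of -0.10 (SE 0.120) after AICAR both came with overlapping groups. Eif4ebp3 (Entrez 108112, chr18:36664060-36666324, plus strand) was the least abundant member, with 216 to 327 reads per library and levels between 3.01 and 4.50 CPM. Its log2 differences were -0.11 (SE 0.108, but 0.15 when scaled to Tbp) and -0.17 (SE 0.108), with overlapping groups. The GENCODE model AC115631.1 on the same strand, which runs in from the neighbouring locus, overlaps Eif4ebp3, and this gene is read here with that limit.

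The fourth gene of the eIF4E family, Eif4e1b (Entrez 218268, chr13:54783994-54788459, plus strand), known for its expression in oocytes, was not among the chosen genes and was tested. It had 4, 6 and 2 reads in the control vehicle mice and 5, 5 and 3 in the control AICAR mice. In HSALR mice it had 61, 104, 81, 62 and 77 reads after vehicle and 70, 76, 61, 143 and 125 after AICAR. No HSALR library overlapped a control library. The gene passed the filter on low counts only through its HSALR libraries, since 0 of the 6 control libraries reached the minimum that 3 had to reach, so it was tested because it was high there. The log2 difference was 4.24 (SE 0.432, 95% interval 3.32 to 5.16, edgeR quasi-likelihood adjusted p = 6e-06) after vehicle and 4.41 (SE 0.428, 95% interval 3.50 to 5.32, edgeR adjusted p = 6.5e-06) after AICAR. Only 12 reads over the 3 control vehicle libraries and 13 over the 3 control AICAR libraries stand behind the lower side of these ratios. With no filter on low counts, the edgeR adjusted p was 4.1e-06 after vehicle and 4.3e-06 after AICAR. In HSALR muscle the level was still low, with a mean of 1.05 ± 0.266 CPM (SD, n = 5) after vehicle and 1.31 ± 0.529 (SD, n = 5) after AICAR.

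To compare genes with each other, the normalized level was divided by the length deposited for each gene with the counts, in kilobases. On this scale, the order in control vehicle muscle was Eif4ebp2 (54.7 CPM per kb), Eif4ebp1 (27.8), Eif4e (22.8), Eif4e2 (13.2), Eif4e3 (9.61), Eif4ebp3 (3.21) and Eif4e1b (0.0253), and no neighbours in that order overlapped. In HSALR vehicle muscle Eif4e3 stood second at 32.4 CPM per kb, above Eif4e at 25.7. There, Eif4ebp2 at 36.1 overlapped Eif4e3, Eif4e overlapped Eif4ebp1 at 24.1, and the other neighbours were apart. The order in control AICAR muscle was that of control vehicle muscle. In HSALR AICAR muscle Eif4ebp2 (37.0 CPM per kb) overlapped Eif4ebp1 (32.3), which overlapped Eif4e3 (31.7), followed without overlap by Eif4e (25.3) and Eif4e2 (21.7).

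As a share of the summed per-kilobase level of Eif4e, Eif4e2 and Eif4e3, Eif4e3 made up 21.1% ± 2.69 (SD, n = 3) in control vehicle muscle and 46.1% ± 0.692 (SD, n = 5) in HSALR vehicle muscle. The share of Eif4e was 50.04% ± 2.88 and 36.6% ± 1.31 in the same groups. Thus, per kilobase, Eif4e3 was the smallest of the 3 eIF4E transcripts in control muscle and the most abundant in HSALR muscle. The second ranking rests on the deposited lengths, 5115 bases for Eif4e and 2513 for Eif4e3. In CPM, Eif4e stayed above Eif4e3 in HSALR muscle, with means of 131.6 and 81.4 after vehicle and 129.4 and 79.6 after AICAR. After AICAR, the Eif4e3 share was 20.2% ± 1.77 in controls and 40.3% ± 2.46 in HSALR muscle, where Eif4e2 held 27.6% ± 2.80 against 17.3% ± 1.14 after vehicle.

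The sum of the 3 eIF4E genes was 45.6 ± 0.266 CPM per kb (SD, n = 3) in control vehicle muscle and 70.3 ± 2.81 (SD, n = 5) in HSALR vehicle muscle, and that of the 3 4E-binding protein genes was 85.7 ± 3.69 and 63.2 ± 3.92. The ratio of the second sum to the first ranged from 1.78 to 1.97 in control vehicle, 0.823 to 0.964 in HSALR vehicle, 1.45 to 1.71 in control AICAR and 0.869 to 0.966 in HSALR AICAR mice. The ratio was below 1 in all 10 HSALR mice and above 1 in all 6 controls. Eif4e3 and Eif4ebp2 make up most of this difference, so it follows from the choice of the genes and was not tested. Where the ratio lies against 1 also rests on the deposited lengths. Nor does a ratio of transcripts give the ratio of the proteins.

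**Figure D2:**
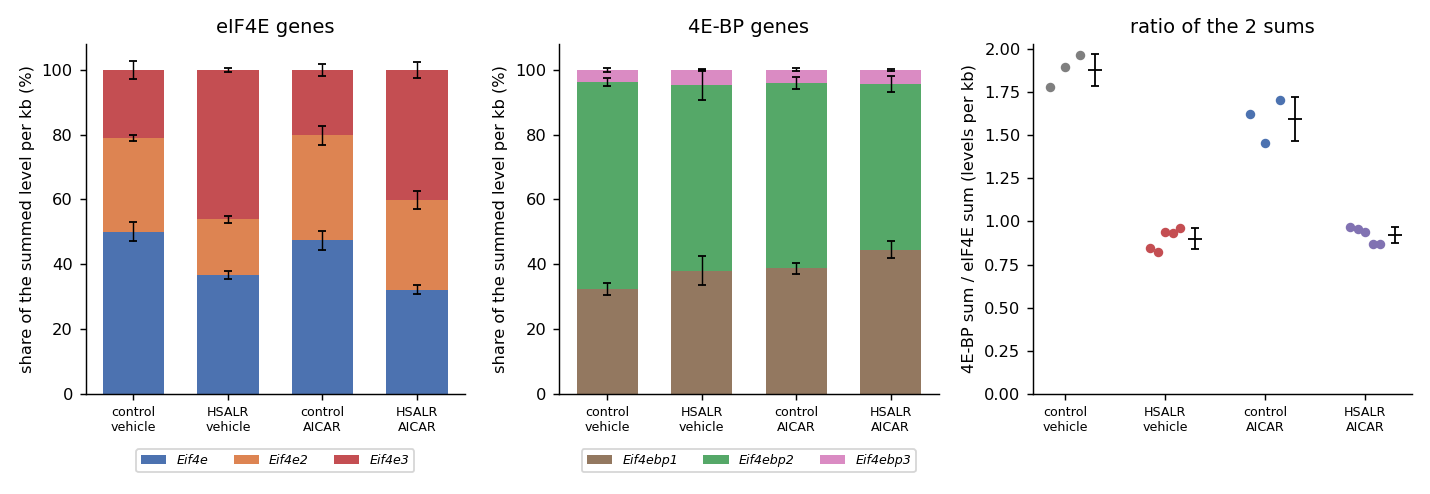
Share (%) of each gene in the summed per-kilobase level of the 3 eIF4E genes (left) and of the 3 4E-binding protein genes (middle) as stacked group means with SD bars, and the ratio of the second sum to the first in each mouse with mean ± SD (right). The Eif4e3 share goes from 21.1% in control vehicle to 46.1% in HSALR vehicle muscle, and the ratio lies below 1 in each HSALR mouse.

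The genes with a pattern closest to that of Eif4e3 over the 16 libraries were sought by the root mean square difference of log2 levels, each centred on its own mean, among the 12511 tested genes with a mean of at least 1 CPM. The nearest were Ccdc136 (0.17), Sntb1 (0.20), Qsox1 (0.20), Osbpl10 (0.20) and Ift122 (0.21). Ccdc136 was 9.54 ± 1.07 CPM (SD, n = 3) in control vehicle muscle and 32.9 ± 2.74 (SD, n = 5) in HSALR vehicle muscle. Sntb1, which encodes the dystrophin-associated protein beta-1-syntrophin, was 6.89 ± 0.848 and 22.0 ± 3.94 CPM. Qsox1, an enzyme that forms disulfide bonds, was 23.1 ± 1.27 and 59.5 ± 2.31 CPM. Of the other members, Eif4e was nearest, at a difference of 0.76 and rank 4105.

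**Figure D3:**
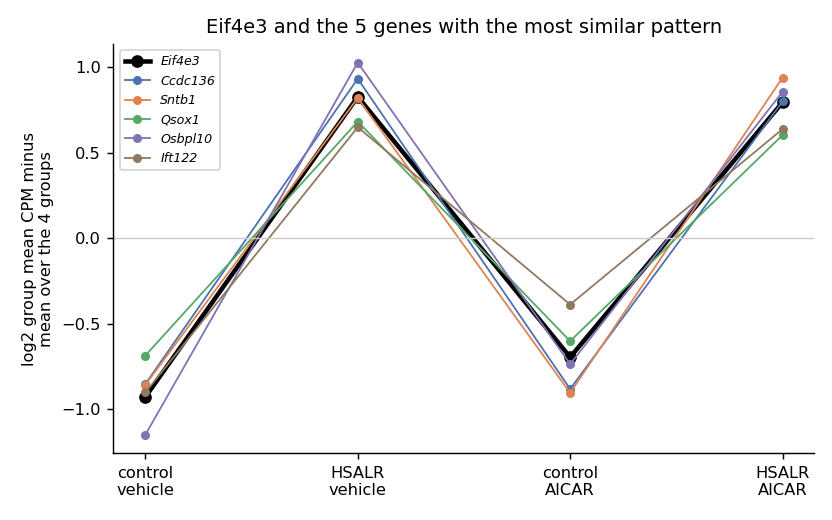
Group means as log2 CPM, each minus the mean of that gene over the 4 groups (y axis), for Eif4e3 (thick line) and the 5 genes with the smallest root mean square difference from it, across the 4 groups (x axis). All 6 lines are high in both HSALR groups and low in both control groups, and the order of the lines carries no test.

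AICAR raised Eif4e2 and Eif4ebp1 in HSALR muscle and left the values of the other 4 genes close to those after vehicle. In HSALR muscle Eif4e2 was 62.2, 66.8, 58.6, 54.8 and 56.3 CPM after vehicle and 114.9, 109.0, 86.5, 109.2 and 115.5 after AICAR. Each AICAR mouse was above each vehicle mouse, and 1 AICAR mouse stood below its 4 group mates. The log2 fold change was 0.84 (SE 0.093, 95% interval 0.64 to 1.04, 1.79-fold, edgeR quasi-likelihood adjusted p = 1.9e-05), and 404 of the 15487 genes rose at least as far.

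Eif4ebp1 was 20.1, 19.9, 23.4, 28.1 and 26.7 CPM in HSALR muscle after vehicle and 35.2, 34.4, 31.7, 26.8 and 30.4 after AICAR. The ranges overlapped at 1 AICAR mouse. The log2 fold change was 0.42 (SE 0.104, 95% interval 0.20 to 0.65, 1.34-fold, edgeR adjusted p = 0.0079). With levels scaled to the reference gene Tbp, the value was 0.30 and no longer passed (edgeR adjusted p = 0.084).

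The other members gave intervals around 0 in HSALR muscle. For Eif4e3 the log2 fold change was -0.03 (SE 0.071, 95% interval -0.18 to 0.12, edgeR adjusted p = 0.78), and -0.16 (SE 0.077, edgeR adjusted p = 0.19) with the epidermal marker score as a covariate. For Eif4e it was -0.02 (95% interval -0.13 to 0.08, edgeR adjusted p = 0.77), for Eif4ebp2 0.03 (95% interval -0.12 to 0.19, edgeR adjusted p = 0.78) and for Eif4ebp3 0.08 (95% interval -0.12 to 0.28, edgeR adjusted p = 0.55). The levels that set HSALR muscle apart, high Eif4e3 and low Eif4ebp2, were thus still present after 7 days of AICAR. In all, 2 of 6 members passed in HSALR muscle, both higher, where 26.6% of all tested genes passed (13.7% higher and 13.0% lower).

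In control muscle, AICAR raised Eif4e2 and, by a small amount, Eif4e. Eif4e2 was 62.8, 66.4 and 65.5 CPM after vehicle and 75.4, 87.7 and 106.2 after AICAR, without overlap. The log2 fold change was 0.47 (SE 0.119, 95% interval 0.21 to 0.72, 1.38-fold, edgeR adjusted p = 0.018). Eif4e was 119.3, 109.3 and 121.4 CPM after vehicle and 130.3, 138.9 and 137.4 after AICAR, again without overlap, with a log2 fold change of 0.22 (SE 0.064, 95% interval 0.08 to 0.35, edgeR adjusted p = 0.038).

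Neither call in control muscle held under every alternative. Eif4e2 no longer passed without vehicle mouse S445 (0.45, edgeR adjusted p = 0.065) or AICAR mouse S449 (0.33, edgeR adjusted p = 0.094). Eif4e no longer passed without S445 (0.23, edgeR adjusted p = 0.072), S446 (0.17, edgeR adjusted p = 0.14), S448 (0.19, edgeR adjusted p = 0.14) or S449 (0.21, edgeR adjusted p = 0.099). With only the 2 groups compared, neither passed (edgeR adjusted p = 0.061 for Eif4e2 and 0.11 for Eif4e), and Eif4e did not pass with upper-quartile scaling (edgeR adjusted p = 0.12), library size alone (edgeR adjusted p = 0.15) or no filter on low counts (edgeR adjusted p = 0.051). When scaled to Tbp, both passed, Eif4e at 0.42 (edgeR adjusted p = 0.029) and Eif4e2 at 0.66 (edgeR adjusted p = 0.0034).

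The other members did not pass in control muscle with all mice and TMM scaling (the correction for library composition). Eif4e3 gave 0.23 (SE 0.092, 95% interval 0.04 to 0.43, edgeR adjusted p = 0.11) and rested on single mice, since it passed without vehicle mouse S446 (0.32, edgeR adjusted p = 0.045) but was 0.13 without S450 (edgeR adjusted p = 0.37) and 0.15 without AICAR mouse S449 (edgeR adjusted p = 0.38). Eif4ebp1 gave 0.32 (95% interval 0.03 to 0.60, edgeR adjusted p = 0.13) although its groups did not overlap, and passed when scaled to Tbp (0.51, edgeR adjusted p = 0.034). The values were -0.09 for Eif4ebp2 (95% interval -0.29 to 0.11, edgeR adjusted p = 0.58) and 0.14 for Eif4ebp3 (95% interval -0.12 to 0.40, edgeR adjusted p = 0.48). In all, 2 of 6 members passed, both higher, where 13.2% of all tested genes did (8.40% higher and 4.77% lower).

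Whether the response to AICAR differed between the genotypes was tested as the difference of both log2 fold changes, HSALR minus control. None of the 6 members passed (0 of 6 by edgeR), where 0.691% of all tested genes did (0.207% higher and 0.484% lower). The difference was 0.37 for Eif4e2 (SE 0.151, 95% interval 0.05 to 0.69, edgeR adjusted p = 0.26) and -0.24 for Eif4e (SE 0.081, 95% interval -0.41 to -0.07, edgeR adjusted p = 0.19). For Eif4e3 it was -0.26 (SE 0.116). That value is a description, since it equals the genotype difference after AICAR minus that after vehicle, which led to the choice of the gene. When scaled to Tbp, the differences were 0.062 for Eif4e2 and -0.56 for Eif4e (edgeR adjusted p = 0.80 and 0.057), and -0.57 for Eif4e3. Without control vehicle mouse S450, that of Eif4e3 was -0.17. The larger rise of Eif4e2 in HSALR muscle is thus not shown to differ from that in controls. Eif4e1b did not pass for AICAR in HSALR muscle (0.32, 95% interval -0.24 to 0.88, edgeR adjusted p = 0.41) or in control muscle (0.15, 95% interval -1.06 to 1.36, edgeR adjusted p = 0.90).

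Without the 4 libraries whose epidermal sum exceeded 100 CPM, a choice made after seeing the data, the AICAR values in HSALR muscle were 0.81 for Eif4e2 (edgeR adjusted p = 0.002) and 0.49 for Eif4ebp1 (edgeR adjusted p = 0.019), so that 2 of 6 members still passed. In control muscle, Eif4e2 (0.48, edgeR adjusted p = 0.13) and Eif4e (0.22, edgeR adjusted p = 0.13) no longer passed with 2 mice per group. The differences between HSALR and control after vehicle were then 1.64 for Eif4e3 and -0.63 for Eif4ebp2.

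**Figure D4:**
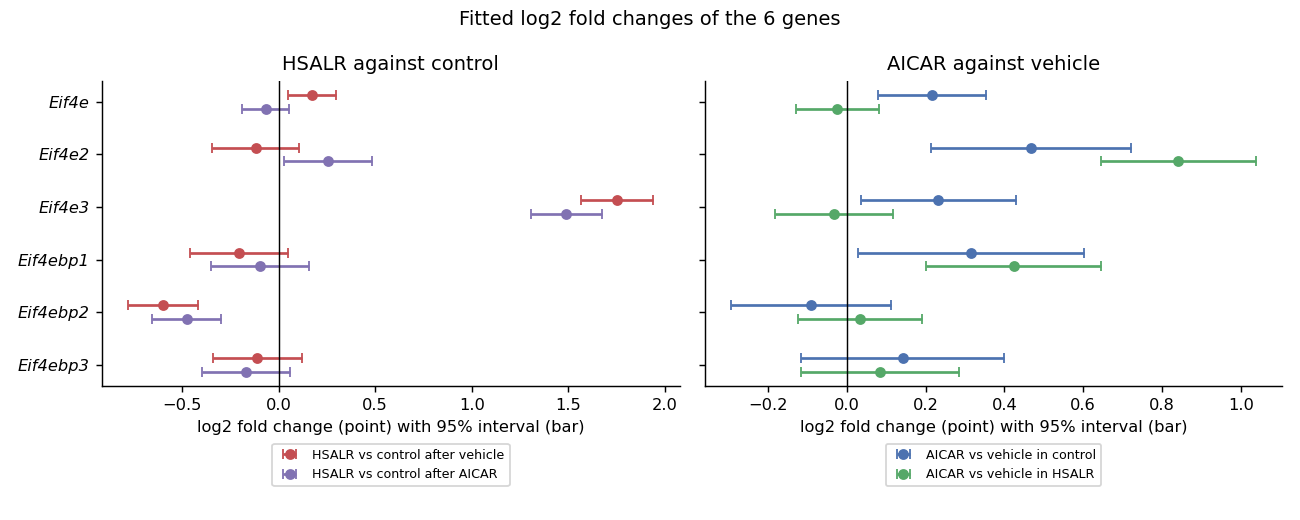
Fitted log2 fold changes (x axes, points) with 95% intervals (bars) of the 6 genes for HSALR against control after vehicle and after AICAR (left, described without a test) and for AICAR against vehicle in control and HSALR muscle (right). Eif4e3 lies at 1.75 and 1.49 and Eif4ebp2 at -0.60 and -0.48 on the left, and Eif4e2 has the highest value on the right in both genotypes.

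The machinery around these genes was described through 50 genes in 4 lists. In HSALR muscle, AICAR raised 13 and lowered 2 of the 50, which is 30.0% against the 26.6% of all tested genes. Of 13 kinases and mTORC1 genes, 4 rose and 1 fell, with a list median of 0.09 against -0.02 over all tested genes. Mknk1 and Mknk2, which encode the kinases that phosphorylate eIF4E, rose from 24.0 ± 1.10 to 39.9 ± 5.06 CPM (SD, n = 5 each, log2 fold change 0.74, edgeR adjusted p = 1.4e-05) and from 475.2 ± 41.2 to 669.7 ± 74.5 CPM (0.50, edgeR adjusted p = 0.0036). Deptor, an inhibitor of mTOR, rose by 0.51 (edgeR adjusted p = 0.014), and Mtor itself by 0.45 (edgeR adjusted p = 0.0035). Rps6, a ribosomal protein and substrate of S6 kinase, fell by 0.17 (edgeR adjusted p = 0.021).

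The list of 10 other eIF4E-binding proteins also holds partners and relatives of such proteins. Of these 10, 4 rose in HSALR muscle after AICAR and 0 fell, where 13.7% of all tested genes rose and 13.0% fell. The list median was 0.12 against -0.02 over all tested genes. Angel1, which binds eIF4E, rose from 8.35 ± 0.796 to 11.4 ± 0.573 CPM (SD, n = 5 each, log2 fold change 0.45, edgeR adjusted p = 0.00033). Its relative Angel2 rose by 0.27 (edgeR adjusted p = 0.0015) and Cyfip1, which links eIF4E to FMRP, by 0.22 (edgeR adjusted p = 0.0076). Of 14 eIF4F partners, 2 rose and 1 fell, and of 13 genes for nuclear cap binding, capping, cap methylation and decapping, 3 rose and 0 fell, both smaller shares than the 26.6% of all tested genes, with list medians of -0.02 and 0.01. Among the eIF4F partners, the scaffold gene Eif4g3 rose by 0.28 (edgeR adjusted p = 0.016), Pabpc4, a poly(A)-binding protein, rose by 0.24 (edgeR adjusted p = 0.015), and the helicase cofactor Eif4b fell by 0.19 (edgeR adjusted p = 0.036). The cap genes that rose were Cmtr1, a cap ribose methyltransferase (0.33, edgeR adjusted p = 0.00041), the decapping cofactor Dcp1b (0.23, edgeR adjusted p = 0.023) and the capping enzyme Rngtt (0.21, edgeR adjusted p = 0.033). The calls of Eif4b and Rngtt were each lost in 11 of 22 alternatives.

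In control muscle, AICAR raised 4 and lowered 2 of the 50 genes, 12.0% against 13.2% of all tested genes. Mknk2 rose from 307.6 ± 46.3 to 672.1 ± 125.7 CPM (SD, n = 3 each, log2 fold change 1.13, edgeR adjusted p = 0.00018). Pabpc4 rose by 0.46 (edgeR adjusted p = 0.0032), Zfp598, a ubiquitin ligase that works with eIF4E2 at collided ribosomes, by 0.34 (edgeR adjusted p = 0.011), and Angel2 by 0.24 (edgeR adjusted p = 0.028). Eif4b fell by 0.26 (edgeR adjusted p = 0.045) and Nudt16, a decapping enzyme, by 0.39 (edgeR adjusted p = 0.028). The call of Eif4b was lost in 11, that of Angel2 in 9 and that of Nudt16 in 7 of 18 alternatives. The list medians were -0.01 for eIF4F partners, -0.0034 for other eIF4E-binding proteins, 0.04 for kinases and mTORC1 and -0.13 for the cap list, against -0.01 over all tested genes. For the difference between the genotypes in the AICAR response, 0 of the 50 genes passed in edgeR, where 0.691% of all tested genes did.

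**Figure D5:**
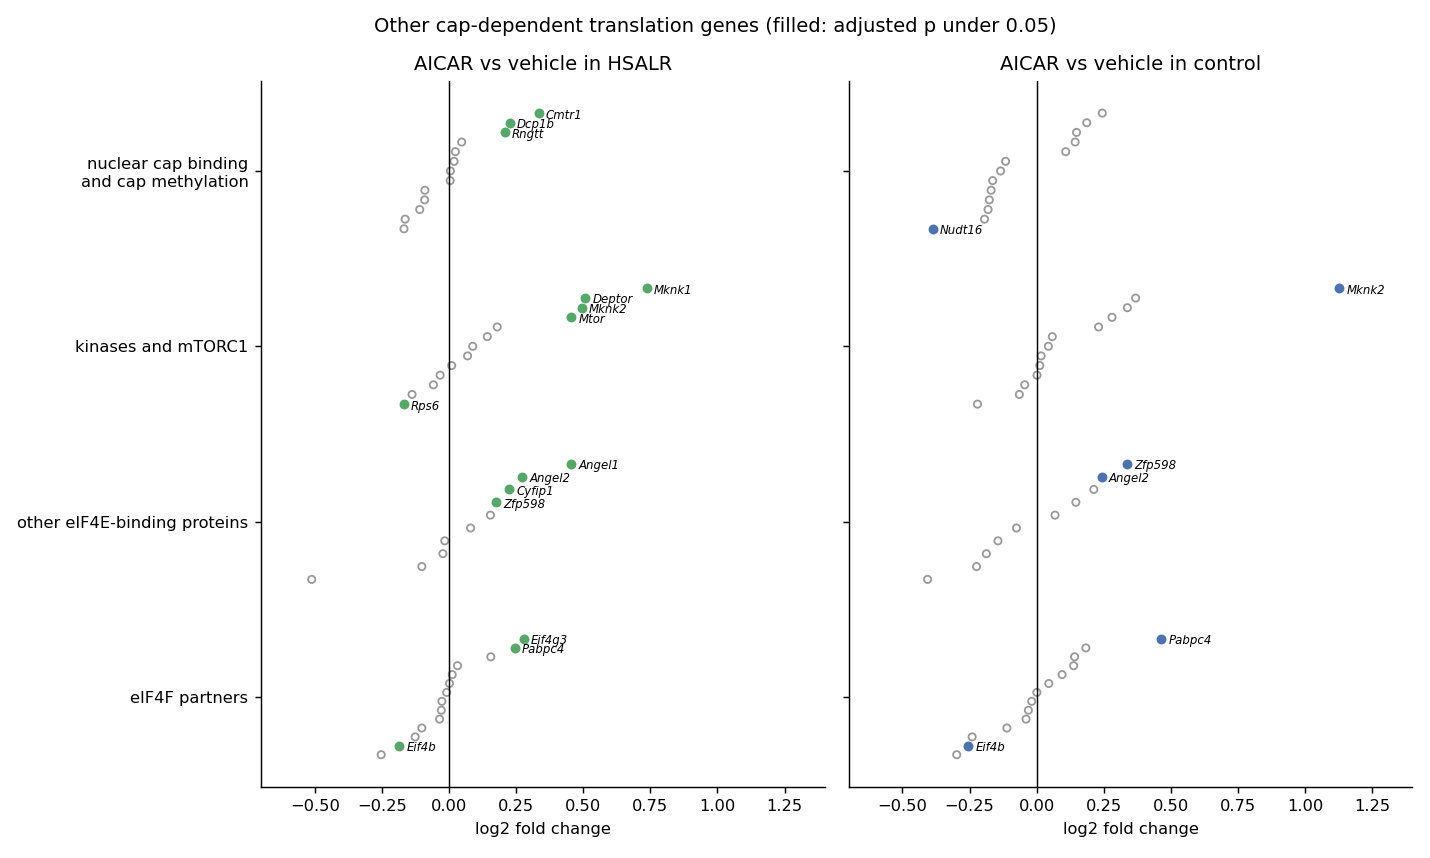
Log2 fold change after AICAR (x axes) in HSALR (left) and control muscle (right) for the 50 genes of the 4 lists, ordered by value within each list, with filled named points for genes with an adjusted p under 0.05. Mknk1 has the highest value on the left, at 0.74, and Mknk2 on the right, at 1.13.

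Between HSALR and control muscle after vehicle, 8 of the 50 genes were higher and 11 lower, 38.0% against 26.9% of all tested genes (15.4% higher and 11.5% lower). Of the 10 genes listed as other eIF4E-binding proteins, 0 were higher and 4 lower, with a list median of -0.22 against 0.01 over all tested genes. The lower ones included Gigyf1, a partner of eIF4E2 (log2 difference -0.39, edgeR adjusted p = 0.00081), Angel1 (-0.37, edgeR adjusted p = 0.0031) and Zfp598 (-0.25, edgeR adjusted p = 0.014). Of 13 kinases and mTORC1 genes, 3 were higher and 1 lower, with a list median of -0.05. Mknk2 (0.63, edgeR adjusted p = 0.002), Rps6kb2, an S6 kinase (0.29, edgeR adjusted p = 0.014) and Rps6 (0.25, edgeR adjusted p = 0.0048) were higher, and Mknk1 (-0.43, edgeR adjusted p = 0.0024) was lower.

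Of the 14 eIF4F partners, 3 were higher after vehicle and 2 lower, with a list median of 0.00. The helicase gene Eif4a1 (0.34, edgeR adjusted p = 0.0035), its cofactor Eif4h (0.28, edgeR adjusted p = 0.001) and Paip2, an inhibitor of poly(A)-binding protein (0.18, edgeR adjusted p = 0.014), were higher, and Paip2b (-0.49, edgeR adjusted p = 0.00071) and Paip1 (-0.14, edgeR adjusted p = 0.046) were lower. Of the 13 cap genes, 2 were higher and 4 lower, with a list median of -0.06. Dcps, which degrades the cap left after decay (0.49, edgeR adjusted p = 0.00019), and Nudt16 (0.28, edgeR adjusted p = 0.042) were higher, while Rngtt (-0.25, edgeR adjusted p = 0.026), Dcp1a (-0.25, edgeR adjusted p = 0.026) and Cmtr1 (-0.22, edgeR adjusted p = 0.014) were among the lower ones. When scaled to Tbp, which raised the median difference of all genes by 0.27, the signs of Zfp598, Paip1, Rngtt, Dcp1a and Cmtr1 in this comparison turned positive, and none of them passed. The calls of Nudt16 and Paip1 changed in 12, that of Dcp1a in 10 and that of Rngtt in 8 of 20 alternatives.

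After AICAR, 5 of the 50 genes were higher in HSALR than in control muscle and 4 lower, 18% against 21.8% of all tested genes (12.2% higher and 9.64% lower). Nudt16 (0.56, edgeR adjusted p = 0.00099), Dcps (0.33, edgeR adjusted p = 0.0058) and Ncbp2, a subunit of the nuclear cap-binding complex (0.28, edgeR adjusted p = 0.036), were higher with 0 of the cap genes lower. Rps6kb2 (0.42, edgeR adjusted p = 0.0018) and Eif4g3 (0.31, edgeR adjusted p = 0.023) were also higher. Zfp598 (-0.41, edgeR adjusted p = 0.00066), Larp1, which represses mRNAs of the translation machinery (-0.31, edgeR adjusted p = 0.026), Tsc2, an inhibitor of mTORC1 (-0.27, edgeR adjusted p = 0.014) and Paip1 (-0.14, edgeR adjusted p = 0.042) were lower. The call of Paip1 was lost in 12 and that of Ncbp2 in 10 of 20 alternatives. The list medians were -0.02 for eIF4F partners, -0.11 for other eIF4E-binding proteins, 0.03 for kinases and mTORC1 and -0.02 for the cap list, against 0.00 over all tested genes.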

How the data were processed

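RNA was taken from powdered gastrocnemius muscle and sequenced as stranded poly(A) libraries. The authors deposited whole-number counts per gene and 1 length per gene. Per the study's methods, the counts are reads aligned with STAR 2.5.2a to mm10 and starting in any RefSeq exon. No replicates were pooled, and 16 of 16 columns were used. Reads with several equally good genome positions were kept at a single one of them, which could misplace reads between near-identical copies. The strand setting of the counting is not given in the sources used here.

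Counts were tested with edgeR 4.0.16 (R 4.3.3): TMM scaling (factors 0.906 to 1.06), filterByExpr over the 4 groups, 1 mean per group over all 16 libraries, the quasi-likelihood test and Benjamini-Hochberg adjustment over 15487 genes, called at an adjusted p under 0.05. Log2 fold changes carry an SE and a 95% interval. Replicates differed by more than sampling noise (chi-square per degree of freedom 23.96 to 134.5 over 26 pairs). Between 64890014 and 81987726 reads per library were counted. Counting error is largest for the genes with few reads, Eif4e1b, Gpr27 and, among the members, Eif4ebp3.

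The members and gene lists were chosen with earlier results of these data known. Text names all members, the 5 genes closest to Eif4e3 (log2 of CPM plus 0.5) and annotated genes overlapping a member. From each list it names up to 3 higher and 3 lower genes per comparison by size among those called, and Mtor beyond that. Of the 24454 genes, 24374 were named by RefSeq (GRCm38.p6). Alternatives were other scalings, filters, tests (limma-voom 3.58.1, DESeq2 1.42.0), sample sets, an epidermal covariate and leaving out each mouse. Coding windows were aligned with Biopython 1.88.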

Additional observations from a re-analysis of the deposited data

Results flagged for a closer look

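In a group of 5, a sample was singled out where its gap to the nearest other exceeded 0.71 of the group's range. Over 34 groups of 5 values, 2 were singled out, and chance would give about 1.7. Both belong to the HSALR AICAR mouse S460. Its Eif4e2 level was 86.5 CPM, against 109.0 to 115.5 CPM in the other 4 mice of the group, and its Eif4e2 share of the 3 eIF4E genes per kilobase was 22.6%, against 28.5% to 29.3%. The Eif4e3 level of this mouse, 86.3 CPM, was the highest of its group, and its epidermal marker sum was 2.504 CPM. Without it, the log2 fold change of Eif4e2 after AICAR in HSALR muscle was 0.91 in place of 0.84.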

How the results depend on the processing

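Of 642 alternative values of the members, 607 kept their direction and their side of the threshold or moved by less than the spread between mice, 14 lost the call, 2 gained it, 12 changed sign and 7 moved further. Of 1117 alternative values of the other named genes (Mtor not included), 942 kept both, 161 lost the call, 2 gained it and 12 changed sign. Those changed in at least 50% of their alternatives were, for HSALR against control, Nudt16 (12 of 20), Paip1 (12 of 20) and Dcp1a (10 of 20) after vehicle and Paip1 (12 of 20) and Ncbp2 (10 of 20) after AICAR, and, for AICAR, Eif4b (11 of 22) and Rngtt (11 of 22) in HSALR and Eif4b (11 of 18) and Angel2 (9 of 18) in control. The causes were not tested beyond what each alternative changes by its construction. In control muscle after AICAR, Eif4e lost its call with upper-quartile scaling (0.16), library size alone (0.17), no filter on low counts (0.22), only the 2 groups compared (0.21) and without the 4 libraries of high epidermal markers (0.22), a choice made after seeing the data. Eif4e2 lost its call there with only the 2 groups compared (0.46) and without those 4 libraries (0.48).

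Scaling to Tbp shifted the median of all genes by -0.11 for AICAR in HSALR, 0.20 for AICAR in control, 0.27 for HSALR against control after vehicle and -0.31 for the difference of the AICAR responses. The differences after vehicle became 0.46 for Eif4e, 0.15 for Eif4e2, 2.02 for Eif4e3, 0.070 for Eif4ebp1, -0.32 for Eif4ebp2 and 0.15 for Eif4ebp3. Eif4ebp1 became 0.30 for AICAR in HSALR (no longer passing), 0.51 in control (now passing) and -0.21 for the difference of both. For the difference of the responses, Eif4e became -0.56, Eif4e2 0.062, Eif4e3 -0.57 and Eif4ebp3 -0.35. Eif4e became 0.42 for AICAR in control. Eif4ebp2 became -0.083 in HSALR, 0.10 in control and -0.19 for the difference, Eif4ebp3 -0.023 in HSALR and Eif4e1b -0.14 for the difference. HSALR against control after vehicle became 0.054 for Cmtr1, 0.033 for Dcp1a, 0.14 for Paip1, 0.032 for Rngtt and 0.014 for Zfp598. Eif4ebp2 in HSALR after AICAR was also -0.044 by library size alone and -0.01 with the epidermal covariate. Without the 4 libraries, Eif4ebp2 was 0.0067 and Eif4e1b -0.24 for AICAR in control, and Eif4ebp3 was 0.070 for the difference.

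The number of genes called for AICAR in HSALR was 4121, and 2369 with the epidermal covariate. For AICAR in control it was 2039, and 1164 with only the 2 groups compared. For the difference of the AICAR responses it was 107, and 381 when scaled to Tbp, 536 with DESeq2 and 59 with the covariate. For HSALR against control after AICAR it was 3379, and 1396 when scaled to Tbp. Without the 4 libraries, the 5 counts were 2609 for AICAR in HSALR, 668 for AICAR in control, 9 for the difference, 2291 for HSALR against control after vehicle and 2178 after AICAR.

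The share of higher genes among those called was 51.3% for AICAR in HSALR and 30.9% by library size alone or 25.2% when scaled to Tbp. It was 63.8% for AICAR in control and 45.1% with upper-quartile scaling, 50.7% by library size or 94.3% with Tbp, 29.9% for the difference and 40.7% with upper-quartile scaling or 1.57% with Tbp, and 57.2% for HSALR against control after vehicle and 95.4% with Tbp.

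When each mouse was left out in turn, the counts ranged from 1143 to 1726 for AICAR in control, from 15 (without S448) to 371 (without S460) for the difference of the responses and from 2214 (without S447) to 3790 for HSALR against control after AICAR. The members' values ranged from 0.17 to 0.25 for Eif4e, 0.33 to 0.58 for Eif4e2 and 0.13 to 0.32 for Eif4e3 with AICAR in control, from -0.0072 to 0.064 for Eif4ebp2 with AICAR in HSALR, from -0.16 to 0.053 for Eif4ebp3 in the difference and from -0.57 to -0.32 for Eif4ebp2 and 0.14 (without S447) to 0.39 (without S449) for Eif4e2 in HSALR against control after AICAR. The difference of the responses ranged from -0.36 (without S446) to -0.17 (without S450) for Eif4e3 and from 0.26 to 0.51 for Eif4e2. Eif4e1b ranged from -0.16 to 0.50 for AICAR in control and from -0.19 to 0.48 for the difference, and Gpr27 from -0.069 to 0.84 for AICAR in control. Levels per kilobase of RefSeq exon length were not run. Eif4e1b was not estimated with at least 10 counts in every library, since it does not pass that filter. No paired analysis was possible because the groups share no mouse numbers.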
